A study of Homo sapiens with 8 samples.

Results

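The regions described here carried H3K27ac peaks in both lines and ranked lower in cells with *HDAC1* overexpression than in control cells. Any peaks with 1 bp or more in common became a single region, which gave 18678 regions, and 9477 of these held peaks of both lines. For each shared region the highest deposited peak signal of each list was turned into a percentile rank over all merged regions with a peak in that list. Regions were selected on these ranks, with a rank in MP2_NTC at least 20 points above that in MP2_HDAC1_OE, and 1686 of the 9477 shared regions (17.8%) met this rule. The opposite gap of at least 20 points towards MP2_HDAC1_OE was met by 2193 shared regions (23.1%), which serve below as the mirror set. Since the ranks chose the members, the ranks and signals are given as a description without a test.

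Both lines derive from MIA PaCa-2, an established cell line from a human pancreatic carcinoma. MP2_HDAC1_OE carries the lentiSAMv2 and lentiMPHv2 CRISPR activation constructs with a guide RNA to *HDAC1*, and MP2_NTC carries the same constructs with a non-targeting guide, each as 1 stable line. H3K27ac was measured in 2 samples per line beside 2 control samples made without an antibody, with 75 bp reads. The authors deposited 1 list per line that pools both samples, with 25045 peaks for MP2_HDAC1_OE and 22569 for MP2_NTC, so there was no spread between replicates, the depth was unknown, and no difference between the lines could be tested. At *HDAC1* itself, the targeted gene, a promoter region had a signal of 44.1 in MP2_NTC and 91.6 in MP2_HDAC1_OE, which put it in the mirror set, and the lists hold no measure of its expression. Intervals below are 95% intervals (Wilson for shares, Newcombe for differences of shares, order statistics for medians) and cover counting error alone, with regions that are not replicates of a line.

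Acetylation of lysine 27 of histone H3 marks active promoters and enhancers, where acetyltransferases such as EP300 place it and bromodomain proteins read it. HDAC1 removes acetyl groups from histones as part of corepressor complexes, although it is also found at active genes. In a peak list, a broad acetylated promoter usually appears as several peaks beside the nucleosome-poor start, and the caller reports a summit and a signal for each.

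Sequence is shown for 5 members at promoters at which the strongest peaks of both lines had summits within 100 bp, so that the values of both lists refer to the same site. Each run holds the 250 bases before the annotated start on the strand of the gene (RefSeq, GRCh38.p14). Capitals mark matches on either strand to the motifs GGGCGG (SP1), CCGGAA (ETS), CACGTG (E-box) and TGANTCA (AP-1).
SRSF5: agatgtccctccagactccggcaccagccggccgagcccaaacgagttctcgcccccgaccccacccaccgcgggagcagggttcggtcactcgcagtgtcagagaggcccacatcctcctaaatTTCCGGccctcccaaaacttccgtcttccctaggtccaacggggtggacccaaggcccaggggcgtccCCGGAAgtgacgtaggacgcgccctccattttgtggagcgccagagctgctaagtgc
RPS16: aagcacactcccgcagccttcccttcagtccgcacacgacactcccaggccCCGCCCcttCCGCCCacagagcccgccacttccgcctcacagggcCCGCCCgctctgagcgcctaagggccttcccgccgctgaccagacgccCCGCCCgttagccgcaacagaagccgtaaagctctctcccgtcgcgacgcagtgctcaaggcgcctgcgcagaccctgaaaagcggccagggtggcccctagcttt
MRPL33: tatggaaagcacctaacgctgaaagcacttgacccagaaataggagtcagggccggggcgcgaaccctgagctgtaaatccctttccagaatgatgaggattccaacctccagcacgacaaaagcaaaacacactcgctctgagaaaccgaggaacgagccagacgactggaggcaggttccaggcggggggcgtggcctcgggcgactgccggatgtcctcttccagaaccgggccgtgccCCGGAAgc
FEZ2: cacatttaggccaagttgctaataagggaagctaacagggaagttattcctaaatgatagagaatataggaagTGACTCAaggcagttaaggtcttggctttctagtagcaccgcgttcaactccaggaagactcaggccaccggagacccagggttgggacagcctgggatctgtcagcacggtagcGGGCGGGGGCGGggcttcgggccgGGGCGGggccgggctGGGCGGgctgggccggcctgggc
MCM2: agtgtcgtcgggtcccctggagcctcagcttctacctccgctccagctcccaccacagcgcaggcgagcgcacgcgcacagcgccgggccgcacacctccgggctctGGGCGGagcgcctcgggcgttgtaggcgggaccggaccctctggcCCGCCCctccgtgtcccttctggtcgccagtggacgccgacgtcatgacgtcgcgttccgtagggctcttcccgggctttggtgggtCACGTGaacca

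The run of *SRSF5*, a splicing factor gene, lies at chr14:69766892-69767141 on the plus strand and was covered whole by its member, as was that of *RPS16*, a gene of the small ribosomal subunit (chr19:39435950-39436199, minus strand). The run of *MRPL33*, a mitochondrial ribosomal protein gene (chr2:27771469-27771718, plus strand), was covered over its last 58 bases, and the run of *MCM2*, a subunit of the replicative helicase (chr3:127598161-127598410, plus strand), over its last 89. The member at *FEZ2* reached only 1 base of its run (chr2:36598169-36598418, minus strand) and lay downstream of the start. In all 5 the strongest summits of both lines lay downstream of the start, at 245 bp in MP2_NTC and 236 bp in MP2_HDAC1_OE in *SRSF5*, at 152 and 172 bp in *RPS16*, at 108 and 104 bp in *MRPL33*, at 219 and 238 bp in *FEZ2* and at 302 and 321 bp in *MCM2*. GC content of the runs ran from 59.2% in *MRPL33* to 70.8% in *MCM2*.

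Across the 1686 members the rank fell from a median of 72.3 in MP2_NTC (95% interval 71 to 73.7) to 32.9 in MP2_HDAC1_OE (31.5 to 34.2). The median gap was 32.7 points and the largest 89.9. The highest signal per region had a median of 74.3 in MP2_NTC (middle 80% from 54.2 to 106) and 44.9 in MP2_HDAC1_OE (27.5 to 61). These ranges share values, as the members differed in strength in both lists. The scaling of signal between the lists is not known, and on the log2 scale the members had a median ratio of MP2_NTC over MP2_HDAC1_OE of 0.66 relative to all shared regions, with a range of 0.34 to 2.86. The score for reproducibility, which the authors cap at 1000, had a median of 1000 in MP2_NTC and 780 in MP2_HDAC1_OE. It reached 1000 in 78% of members in MP2_NTC against 16.9% in MP2_HDAC1_OE. The mirror set had the reverse, with 23.7% and 68.3%, and all shared regions had 58.4% and 54.2%. The score belongs to the same peaks as the ranks that chose the members, so it is no separate support for them.

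**Figure D1:**
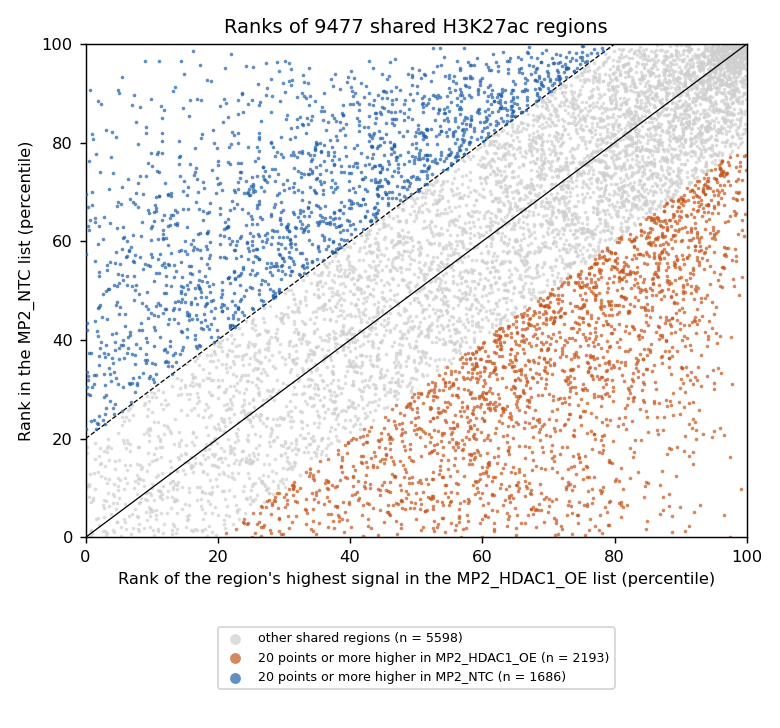
Percentile rank of the highest signal of each shared region in the MP2_HDAC1_OE list (horizontal) and in the MP2_NTC list (vertical), 1 point per region, with the line of equal rank (solid) and the threshold of 20 points (dashed). The 1686 members lie above the dashed line by construction, and few of them sit in the upper left corner, where the largest gap of 89.9 points is found.

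The number of members fell with the size of the gap. A gap of 20 to 30 points was found in 693 members, 30 to 40 in 442, 40 to 60 in 429 and 60 or more in 122. Just inside, regions at *STARD7* (signal 92.7 in MP2_NTC and 64.2 in MP2_HDAC1_OE), *ECT2* (73.8 and 54.7) and *DCUN1D1* (101 and 67.4) had a gap that rounds to 20 points. Just outside, with a gap that also rounds to 20, were a region within *LONRF2* (69.5 and 52.1), a region within *LOC124901355* (95.1 and 65.2) and a region 42124 bp from the start of *ZNF627* (71.3 and 53.1). The signals on either side of the threshold are alike, so the set has no natural edge.

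The strongest peaks of both lines did not always lie at the same place within a member, and this grew with the gap. Their summits were a median of 89 bp apart in members (81 to 101), 84 bp in the mirror set (77 to 92) and 59 bp in the other shared regions (57 to 62). Summits more than 300 bp apart were found in 22.8% of members with a gap of 20 to 30 points (19.8% to 26.1%), in 29.8% at 40 to 60 points (25.7% to 34.3%) and in 48.4% at 60 points or more (39.7% to 57.1%). In the mirror set this share also rose, to 38.8% at 60 points or more (32% to 46%). In 105 members (6.23%) the strongest peaks did not overlap, against 3.61% of other shared regions, 5.7% of the mirror set and 4.56% of all shared regions. The difference of members from the mirror set was 0.528 points (-0.962 to 2.07). Where the strongest peaks lie apart, the ranks compare neighbouring sites and not a single acetylated site. For this reason the summit distance is given beside the largest gaps. Of 5628 shared regions with summits within 100 bp, 881 (15.7%, 14.7% to 16.6%) were members and 1182 (21%) belonged to the mirror set. These 881 members had a median gap of 31.7 points, a largest gap of 87.8, and median signals of 78.3 in MP2_NTC and 48.1 in MP2_HDAC1_OE.

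**Figure D2:**
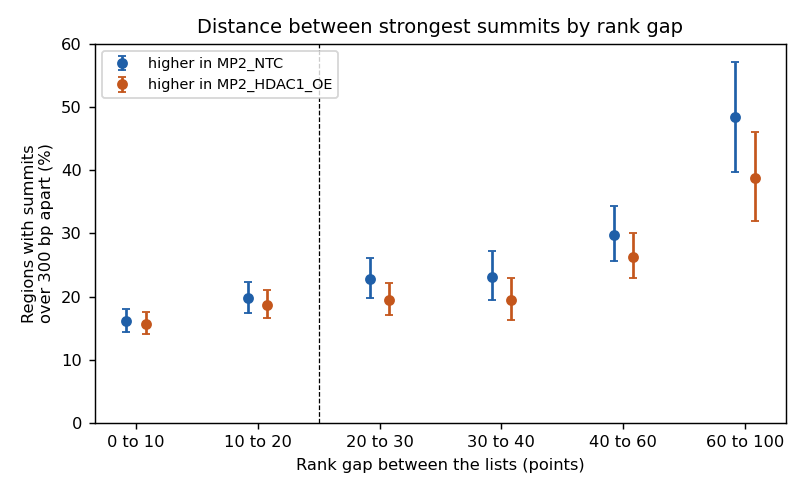
Share of shared regions with strongest summits over 300 bp apart (vertical, percent, with 95% Wilson intervals) by the size of the rank gap (horizontal, points), for gaps towards MP2_NTC (blue) and towards MP2_HDAC1_OE (orange); the dashed line is the threshold. The share is 16.1% for gaps under 10 points towards MP2_NTC and 48.4% from 60 points on.

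Members also held more peaks of the line in which they ranked higher. MP2_NTC had more peaks than MP2_HDAC1_OE in 652 members (38.7%) and fewer in 306 (18.1%), with means of 1.9 and 1.63 peaks. The mirror set had the opposite balance, with more MP2_NTC peaks in 18.7% and more MP2_HDAC1_OE peaks in 40.2%. Many peaks of both lists had a width of exactly 820 bp. The strongest peak of a member had this width in 44.8% in MP2_NTC (42.5% to 47.2%) and in 48.4% in MP2_HDAC1_OE (46% to 50.8%). These shares were 42.9% and 35% in the other shared regions and 66.3% and 40.9% in the mirror set. In both sets the share was thus larger in the line with the lower rank. From a gap of 60 points on, the shares in members were 32.8% and 53.3%. Exactly 1 peak of each list was found in 384 members (22.8%), a share that differed from that of the mirror set by -0.161 points (-2.81 to 2.52).

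At promoter windows of protein-coding genes, the largest gaps were found at *USP1*, *IFT22*, *ERF*, *FEZ2* and *CWC25*. The promoter window reached from 2 kb outside to 1 kb inside an annotated start. The largest gap of all was at *USP1*, a deubiquitinase of DNA repair (chr1:62437139-62438270), with a signal of 101 and a rank of 90.6 in MP2_NTC against 13.3 and 0.716 in MP2_HDAC1_OE. Its strongest summits lay 534 bp apart, so the weak MP2_HDAC1_OE peak sat beside the MP2_NTC peak. At *IFT22*, a component of intraflagellar transport (chr7:101321212-101322617), signals were 109 and 24.2, with summits 28 bp apart and a gap of 87.8 points. This was the largest gap of any member with summits within 100 bp. At *ERF*, an ETS-domain repressor (chr19:42255726-42256769), signals were 96.3 and 16.3 with summits 401 bp apart, and a second member at the same gene (chr19:42254121-42254923) had signals of 82.9 and 46.2. At *FEZ2* (chr2:36597760-36598169) they were 101 and 22.8, 19 bp apart. *MRPL33* (chr2:27771661-27772042) had signals of 123 and 35.9, with summits 4 bp apart. At windows of other genes alone the largest gap was 87.7 points. Of the 15 members with the largest gaps at coding windows, *IFT22*, *FEZ2* and *MRPL33* were the 3 with summits within 100 bp.

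The other named promoter members had gaps of 77.6 to 85.5 points. *PRDX1*, a peroxiredoxin that removes peroxides, had signals of 123 in MP2_NTC and 32.9 in MP2_HDAC1_OE with summits 128 bp apart. *SUMO2*, which encodes a small protein that is attached to others as a tag, had signals of 100 and 23 (371 bp). A region of the mirror set with a gap of -51.2 points lay 214 bp from this member. *CWC25*, a splicing factor gene, had 95.1 and 17.6 (346 bp). *MRPL35*, a second gene of the mitochondrial large ribosomal subunit, came close to a common summit, with 94.8 and 26.6 at 103 bp. *MTERF1*, a mitochondrial transcription termination factor, had 85.9 and 21.3 (514 bp), and *TRDMT1*, a tRNA methyltransferase, 119 and 37.5 (118 bp). *HBS1L*, which acts in ribosome rescue, had 111 and 36.1 (551 bp), *RBM26*, an RNA-binding protein gene, 103 and 35.2 (598 bp), and *MAD2L1BP*, which silences the mitotic checkpoint, 94 and 28.6 (489 bp). In each of these members the rank in MP2_HDAC1_OE was at most 17.3, while that in MP2_NTC was at least 82.1.

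**Figure D3:**
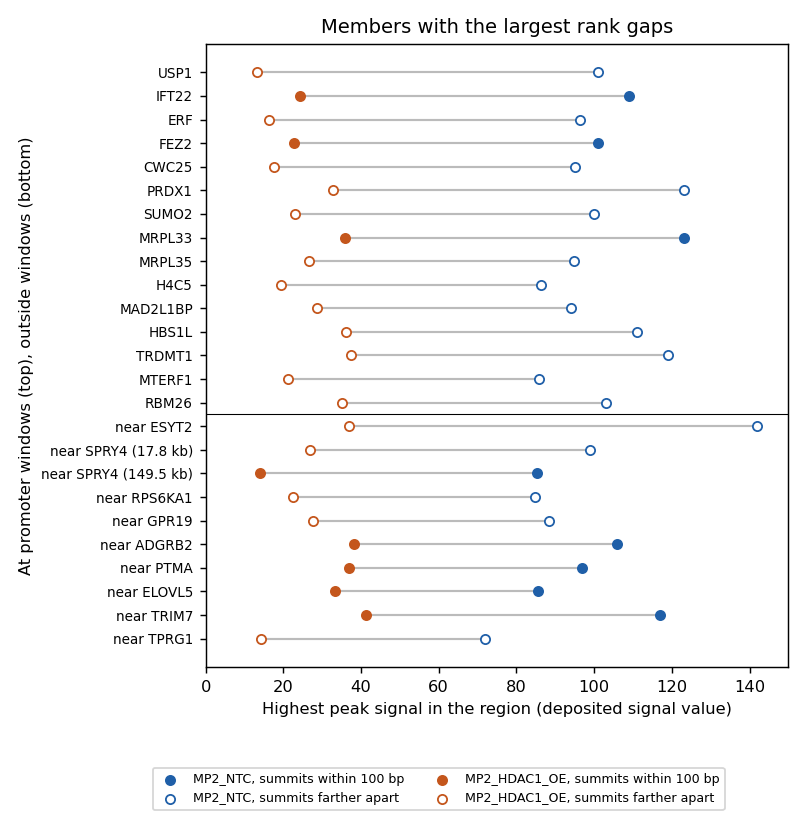
Highest deposited peak signal in MP2_NTC (blue) and MP2_HDAC1_OE (orange) for the 15 members at coding promoter windows (above the line) and the 10 outside all windows (below it) with the largest rank gaps. Filled points have strongest summits within 100 bp of each other, which holds for 3 of the 15 and 5 of the 10; MP2_NTC signals run from 72 to 142 and MP2_HDAC1_OE signals from 13.3 to 41.4.

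Outside all windows the largest gaps were near *ESYT2* and *SPRY4*. The member within *ESYT2*, a tether of the endoplasmic reticulum to the plasma membrane (chr7:158817907-158819829), had signals of 142 in MP2_NTC and 37 in MP2_HDAC1_OE. It lay 9680 bp from the start, with summits 137 bp apart. Its MP2_NTC rank of 98.6 was also among the highest of all members, and the region at the *ESYT2* start was a member as well, with signals of 88.5 and 46.8. A pair of members lay 17849 bp and 149535 bp from *SPRY4*, an inhibitor of receptor tyrosine kinase signaling. They had signals of 98.9 and 26.9 (chr5:142342096-142343124, summits 353 bp apart) and of 85.3 and 14.1 (chr5:142473782-142474296, 1 bp apart). At the promoter window of *SPRY4* itself a region had the opposite gap, with 52.8 in MP2_NTC and 103 in MP2_HDAC1_OE, and a further shared region had 94 and 70.2. A like arrangement was found at *GPR19*, an orphan receptor gene, and at *TRIM7*, a ubiquitin ligase gene. The member within *GPR19* had 88.5 and 27.6, with summits 404 bp apart. In the window of this gene, a region 64 bp from the start of *CDKN1B* had 45 and 86.9, beside a region with an MP2_NTC peak alone (67.1). At *TRIM7* the member 16124 bp away had 117 and 41.4, with summits 22 bp apart, and a region at the window 54.8 and 68.7. A further shared region at that window, in neither set, had 119 and 87.2. Near *PTMA*, which encodes prothymosin alpha, the distal member had 96.9 and 36.8, with summits 53 bp apart. A region 1416 bp from the start of this gene (100 and 51) also ranked higher in MP2_NTC. Nearer to this start lay a region with an MP2_HDAC1_OE peak alone (80) and a region with an MP2_NTC peak alone (69.6). The members nearest to *RPS6KA1*, a kinase downstream of Ras (84.7 and 22.5), *ADGRB2*, an adhesion receptor gene (106 and 38.3), *ELOVL5*, a fatty acid elongase gene (85.5 and 33.3), and *TPRG1* (72 and 14.2) had gaps of 68.8 to 76.5 points. Their strongest summits lay 475, 10, 74 and 233 bp apart, in that order. A nearest gene is a position and not a shown target.

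The members with the highest MP2_NTC ranks were strong promoters in both lists. *MT2A*, a metallothionein that binds metal ions, had signals of 163 in MP2_NTC and 71.7 in MP2_HDAC1_OE, with summits 37 bp apart. A region of the mirror set at the same gene, with a gap of -23.2 points, lay 917 bp from this member. *TMCO1*, a calcium channel gene of the endoplasmic reticulum, had 163 and 71.5 (43 bp), and *SRSF5* had 161 and 64.6 (9 bp). Their ranks were 99.4 to 99.5 in MP2_NTC and 67.1 to 75.3 in MP2_HDAC1_OE. *EIF1*, which selects the start codon, had 149 and 73.2 (59 bp), *FBXO5*, an inhibitor of the anaphase-promoting complex, 147 and 66.8 (17 bp), and *WDR81* 151 and 55.1 (18 bp). Others were the member within *ESYT2*, a region 7928 bp from *SLC27A3* (152 and 74.4) and a region at the window of *RNU1-1*, a gene of the U1 small nuclear RNA with near-identical copies (154 and 55.7). In 9 of the 10 the summits lay within 100 bp of each other, in contrast to the largest gaps.

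Relative to genes, the members looked much like the rest of the shared regions when strength was left aside. A promoter window of a protein-coding gene was met by 1206 members (71.5%, 69.3% to 73.6%), against 73.6% of the other shared regions, a difference of -2.09 points (-4.56 to 0.322). The share was 68.3% in the mirror set, 3.22 points lower (0.305 to 6.11). The strength of a region bears on this, since the other shared regions had a median mean rank of 69.9 and the members of 52.4. Within the middle 50% of the members by mean rank (38.7 to 65.8), the share was 74.8% in members and 70.1% in other shared regions, a difference of 4.76 points (0.911 to 8.5). A further 149 members (8.84%) met a window of a non-coding gene or pseudogene alone, 110 of them of a lncRNA, 141 (8.36%) lay within a coding gene and 190 (11.3%) were intergenic, against 7.34%, 8.61% and 12% of all shared regions. The intergenic share was 10.9% in the other shared regions, a difference of 0.337 points (-1.32 to 2.12). It was 15.4% in the mirror set, with a difference of members from the mirror set of -4.14 points (-6.26 to -1.98). Within the same range of mean rank it was 9.03% in members, 12.5% in other shared regions and 13.4% in the mirror set. There the members differed from the other shared regions by -3.48 points (-6.03 to -0.798) and from the mirror set by -4.4 points (-7.16 to -1.57). Beyond 10 kb from any coding gene start or end lay 328 members (19.5%), 3.13 points more than in the other shared regions (1.06 to 5.3), but within the same range of mean rank the difference was -0.871 points (-4.03 to 2.41).

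Members at promoters and away from them differed in strength and in summit distance. The 1206 at coding windows had median signals of 77.2 in MP2_NTC and 46.8 in MP2_HDAC1_OE and the 190 intergenic members 65.1 and 40, with median gaps of 32.2 and 34.2 points. Summits over 300 bp apart were seen in 22.5% of the former (20.2% to 24.9%) and 39.5% of the latter (32.8% to 46.6%). For 653 members at a single annotated start, the strongest summit lay downstream of that start in 65.4% in MP2_NTC (61.7% to 68.9%) and 62.3% in MP2_HDAC1_OE (58.5% to 66%). The MP2_NTC summit was downstream and the MP2_HDAC1_OE summit upstream in 49 of them (7.5%, 5.72% to 9.78%), and the reverse held in 29 (4.44%, 3.11% to 6.31%). Among other shared regions these shares were 3.82% (3.11% to 4.7%) and 3.51%, and in the mirror set 5.86% (4.46% to 7.66%) and 4.43%, so the same tilt was seen in the mirror set.

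In promoter sequence the members were close to other acetylated promoters. The 300-base promoters of coding genes overlapped by members but by no region of the mirror set (1143) had a median GC content of 65.7% (65.3% to 66.3%) and a CpG content of 0.865 of that expected (0.852 to 0.877). The other shared regions gave 65% and 0.865 over 3973 promoters. SP1 motifs (GGGCGG) were in 74.1% of member promoters and 71.4% of those of other shared regions, against 56.3% of all 22199 coding promoters. ETS motifs (CCGGAA), also frequent at housekeeping genes, were in 34.6%, 36.6% and 21.2%. The NFY motif CCAAT was in 35.8% of member promoters and the E-box CACGTG in 10.4%, against 34.7% and 8.34% of all coding promoters. The CRE motif TGACGTCA was in 4.46% against 2.26% of all, the YY1 motif AAGATGG in 9.8% against 6.04%, the TEAD motif GGAATG in 10.9% against 12.2% and TATAAA in 4.2% against 9.47%. The AP-1 motif TGANTCA, in 6.15% of all coding promoters, was found in 4.72% of member promoters, 1.62 points more than in the mirror set (0.114 to 3.22). Of the 18 differences of members from the mirror set and from other shared regions over 9 motifs, this was the only interval that left out 0. Both strands were searched, none of the motifs contains another, and a match is a run of letters and not a bound site.

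At the level of genes, 1414 of 7178 coding genes with a shared region at the window (19.7%) had at least 1 member there, and 1716 (23.9%) had at least 1 region of the mirror set. The gene lists below were read against these shares, and they show counts without a test. Among genes of the MYC network, 8 of 16 had a member (*CAD*, *FBL*, *MNT*, *MXD3*, *NCL*, *NPM1*, *ODC1* and *PES1*) and 1 had a region of the mirror set. *NCL*, the nucleolar protein nucleolin, had signals of 88 in MP2_NTC and 44.9 in MP2_HDAC1_OE with summits 43 bp apart, and *ODC1*, the first enzyme of polyamine synthesis, 98.4 and 61.1 with the same summit. *CAD*, which starts pyrimidine synthesis, had 102 and 42.3 (222 bp), and *FBL*, the rRNA methyltransferase fibrillarin, 67.1 and 13.2 (965 bp). With summits within 100 bp, 3 of 6 genes of this network had a member (17.3% of all genes), and at a gap of 30 points 3 of 16 (11.4% of all genes). Of genes for cytosolic ribosomal proteins 19 of 61 had a member and 10 a region of the mirror set, with *RPS16* (104 and 49.3, 20 bp apart) and *RPL3* (123 and 50, 16 bp) among the former. With summits within 100 bp these were 11 and 3 of 34, and at a gap of 30 points 12 and 6 of 61.

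Among histone acetyltransferases and BET readers 7 of 18 genes had a member and 3 a region of the mirror set, and 2 had both. With the sum of signals these were 6 and 4, and with summits within 100 bp 5 and 0 of 13. The median gap over the 24 shared regions of this list was -2.13 points. *EP300* had signals of 90.2 in MP2_NTC and 33.2 in MP2_HDAC1_OE, with summits 74 bp apart. *NCOA3*, a nuclear receptor coactivator gene, had 66 and 22.7 (150 bp). *BRD2* had a member (89.7 and 49) beside a region of the mirror set (52.3 and 99.1) and its strongest region in neither set (178 and 91.9). The genes of HDAC1 and its corepressor partners had the opposite balance, with a member at 3 of 28 and a region of the mirror set at 13, *HDAC1* itself among them. The 3 were *HDAC2*, its close paralog (122 and 68.7, 289 bp), *MTA3* of the NuRD complex, at a region shared with the start of *KCNG3* (68.9 and 36.6, 8 bp), and *TBL1XR1* of the NCoR complex (128 and 64.8, 724 bp).

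Of cell cycle genes 8 of 26 had a member and 5 a region of the mirror set. *MCM2* had signals of 81.7 in MP2_NTC and 38.8 in MP2_HDAC1_OE at summits 19 bp apart, *CDC25C*, a phosphatase of mitotic entry, 66.3 and 31.4 (84 bp), and *CDK4*, a kinase of the first gap phase, 58.4 and 37.7 (71 bp). *CCNE1*, a cyclin of the entry into S phase, had 75.7 and 43.1 (117 bp). Cholesterol genes had a member at 4 of 16 and a region of the mirror set at 4, and with the sum of the signals of all peaks of a region in place of the highest signal at 3 and 7. Among the former were *HMGCS1* (77.8 and 52.6, 12 bp) and *EBP* (57.4 and 37.5, 35 bp). In the gemcitabine, fluorouracil and drug transport list 4 of 13 had a member and 2 a region of the mirror set (2 and 3 with the sum of signals), with *SLC29A1*, the transporter that takes up gemcitabine, at 71.1 and 51 (38 bp) and *TOP1*, the topoisomerase, at 119 and 58.5 (505 bp). The counts were 6 and 4 of 25 for Ras, Rap and Ral genes but 2 and 8 with the sum of signals, which turned the balance. Of these genes *SOS1*, an exchange factor for Ras, had 2 members (131 and 72.2 at 4 bp, 97.9 and 45.1 at 576 bp). The actin and adhesion list had 7 of 24 in either direction, with *PFN1*, an actin-binding protein gene, at 91.8 and 47.9 (51 bp).

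At the lower end, RAB GTPase genes had a member at 3 of 29 and a region of the mirror set at 9. With the sum of signals these were 6 (20.7%, against 22% of all genes) and 8, and at a gap of 30 points 0 and 4. For AP-1 and immediate early genes the counts were 4 and 9 of 19. No gene of the epithelial junction and keratin list (8 with a shared region), the mesenchymal list (5) or the pancreatic lineage list (3) had a member, and with so few genes the upper limits of these shares were 32.4% to 56.1%. The other lists had members at 14.3% to 30% of their genes with a shared region, over 10 to 49 genes. These were 4 of 28 for polycomb, demethylase and remodeler genes, 7 of 45 for proteasome and chaperone genes, 5 of 29 for DNA repair, 5 of 27 for p53 targets and apoptosis, 4 of 21 for NRF2 genes, 4 of 21 for interferon and MHC class I genes, 2 of 10 for YAP and TEAD, 11 of 49 for mitochondrial ribosome and respiratory chain, 5 of 20 for lysosome and autophagy, 6 of 23 for hypoxia and glycolysis, 3 of 11 for receptor tyrosine kinases, 3 of 10 for TGF-beta and 3 of 10 for Wnt genes. Of the markers of the tissue, *KRT8* had a peak in MP2_HDAC1_OE alone (46.7). *KRT18* (highest signals 68.9 and 52.5) and *KRT19* (18.6 and 42.8) had peaks of both lists at the window but no member. The blood markers *PTPRC* and *CD3E* had no peak in either list, and *EPCAM*, *CDH1* and *KRT7* had none either. The endothelial marker *CDH5* (48 and 57) and the neuroendocrine marker *SYP* (49.6 and 70.5) had peaks in both lists.

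**Figure D4:**
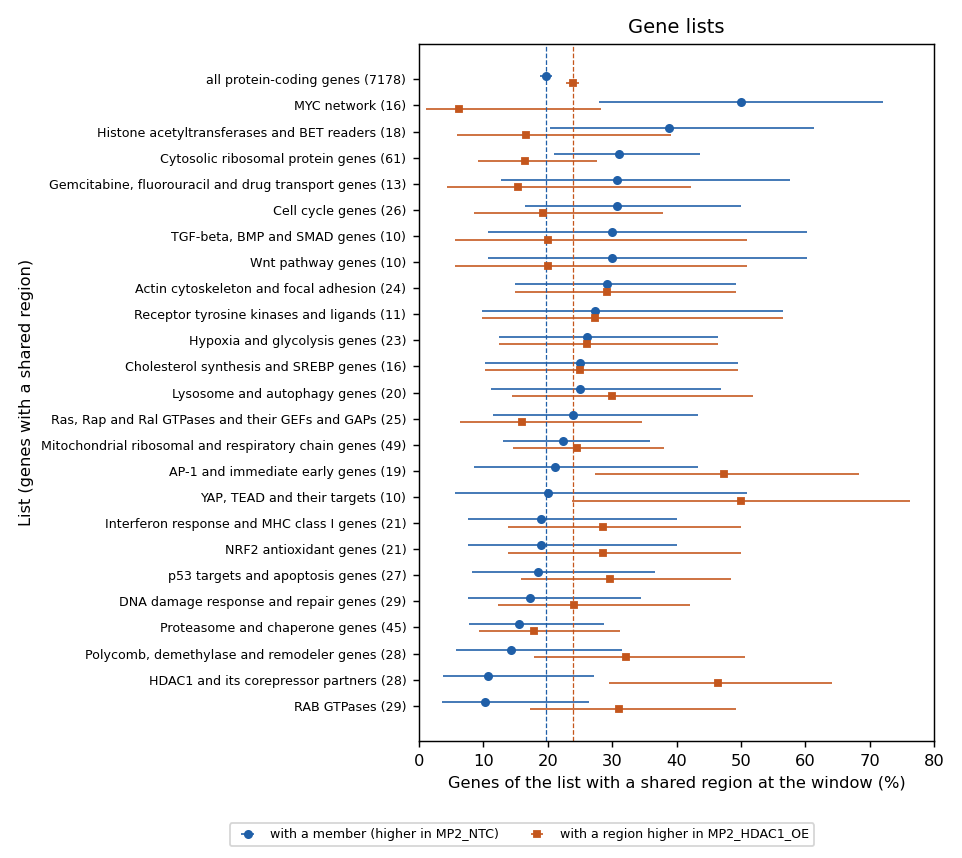
Percent of the genes of each list with at least 1 member (blue circles) or at least 1 region of the mirror set (orange squares) at the promoter window, among the genes with a shared region there (number in brackets), with 95% Wilson intervals, for the lists shown, each with 10 or more such genes. The dashed lines give 19.7% and 23.9%, the shares over all 7178 coding genes, and most intervals cross them.

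At some genes a member and a region of the mirror set lay side by side. Of 341 genes with a member and a further shared region at the window, 105 had both directions, 7.43% of all genes with a member, with a pair of regions counted at each gene whose window it met. Both lay within 1 kb of each other at 78 of them, with a median of 425 bp between them. At *RPL28*, a ribosomal protein gene, the member (chr19:55385772-55386591) had signals of 76.1 in MP2_NTC and 32.5 in MP2_HDAC1_OE, and the region before it (chr19:55384658-55385464) had 39 and 93.1. At *SRF*, a factor of immediate early genes, they were 96.5 and 65.4 in the member and 32.6 and 62.6 beside it. *PARP2*, an enzyme of the DNA damage response, had 114 and 57.4 against 56.2 and 68.5, *RPL7A* 98.5 and 45 against 59.7 and 77.8, and *ZFP36L1*, which promotes mRNA decay, 82.7 and 28.1 against 54.4 and 79.2. At such genes a member describes a part of the promoter and not its total acetylation.

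Other genes had 2 members at the window, which was found at 35 genes, and 0 genes had 3. *SKIL*, a repressor of SMAD signaling, had signals of 108 in MP2_NTC and 65.9 in MP2_HDAC1_OE in one and 50.6 and 36 in the other. *LMNB1*, which encodes lamin B1, had 119 and 65 and 94.5 and 39. *RBM10*, a splicing regulator gene on chromosome X that shares its window with *NDUFB11*, had 97 and 41.3 and 95.8 and 39.4, at summits 26 and 39 bp apart. *EIF2B5*, a translation factor subunit, had 102 and 65.2 and 82 and 51.8, with 0 and 85 bp. *DDIT4*, a stress-induced inhibitor of mTORC1, had 98.8 and 61.5 and 80.5 and 57.1. *MCM7* and *AP4M1* shared 2 members, with 107 and 68.5 and 57.6 and 37.5. The full set of these genes also holds *ACIN1*, *ATL2*, *ATP5F1A*, *AURKAIP1*, *BICRAL*, *CASD1*, *CYBC1*, *EFCAB5*, *ERF*, *GABPB1*, *H4C5*, *HOXA3*, *IFT22*, *JMJD1C*, *LSM8*, *MAD2L1BP*, *MAT2B*, *MED22*, *PCCB*, *PPP1R3F*, *PPP6R1*, *REEP3*, *SOS1*, *SSH2*, *TBCC*, *TRERF1* and *ZNF839*.

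Along the genome the members were scattered more than the regions of the mirror set. Another member lay within 50 kb of 389 members (23.1%, 21.1% to 25.1%), while 33.8% of the mirror set had another of its own kind that near, a difference of -10.7 points (-13.5 to -7.87). The larger size of the mirror set enters into this. With ranks over shared regions alone, which makes both sets nearly equal in size (2059 and 2049), the shares were 26.9% and 30.8%, and with a log2 ratio of 0.5 in place of ranks (1507 and 1491 regions) they were 23% and 29.6%. Regions with MP2_NTC peaks alone made up 21.8% of all regions within 50 kb of a member and those with MP2_HDAC1_OE peaks alone 33%, against 21.3% and 33% around all shared regions. By these counts the surroundings of the members were like those of shared regions in general.

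Chains of members within 50 kb numbered 165, and 122 of them held 2 members. The longest held 7 members at *ZNF839*, *CINP* and *TECPR2* (chr14:102215502-102363865) among 7 regions with MP2_NTC peaks alone and 8 with MP2_HDAC1_OE peaks alone, with signals from 49.4 to 99.8 in MP2_NTC and from 21.4 to 51.7 in MP2_HDAC1_OE. The shortest of the 4 chains of 5 or more members held 5 in 12738 bp (chr2:234245362-234258099), far from any coding gene, with the nearest start, that of *SPP2*, 194660 to 206726 bp away. Its members had signals of 58.3, 53.8, 78.3, 59.9 and 48.9 in MP2_NTC and of 36.7, 38.6, 45.5, 19.5 and 34.3 in MP2_HDAC1_OE, and it held no other shared region but 4 regions with MP2_HDAC1_OE peaks alone. A further 5 lay at *SMG9* and *KCNN4*, a calcium-activated potassium channel gene (chr19:43744635-43785795), beside 4 regions of the mirror set. The chain at *DPF2* and *SLC25A45* (chr11:65333884-65430879) also held 5. Its strongest members lay 32495 and 34699 bp from the start of *FRMD8*, the latter at the window of the non-coding gene *NEAT1*. These members had 112 and 67 and 110 and 51.4, at summits 29 and 3 bp apart. The last named chain, the shortest of the 6 that held 4 members, lay at the histone genes *H4C4*, *H4C5* and *H2AC8* with *H2BC8* (chr6:26189506-26218051). Its members had signals of 71.8 and 29.4, 86.3 and 19.4, 82.3 and 57.5, and 61.6 and 44.1. Over all replication-dependent histone genes, a list looked up after this chain had been seen, 11 of 35 shared regions were members and 3 belonged to the mirror set, but with summits within 100 bp only 3 of 20 were members. Histone genes are near-identical copies, so reads may be placed at the wrong copy.

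By chromosome the share of shared regions that were members ran from 13.8% on chromosome 11 (51 of 369, 10.7% to 17.7%) to 24% on chromosome 22 (41 of 171, 18.2% to 30.9%). Chromosome 14 was also above the 17.8% of all shared regions, with 79 of 359 (22%, 18% to 26.6%). The intervals of the other 20 chromosomes included that share. Chromosomes 11, 12 and X had the largest shares of the mirror set, with 29.3%, 28.6% and 29.8%, and a median gap of -7.46, -5.23 and -7.64 points, against -1.71 over all shared regions. Copy number of the lines was not analysed here, and a difference in the number of chromosomes between them cannot be told apart from a difference in acetylation.

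**Figure D5:**
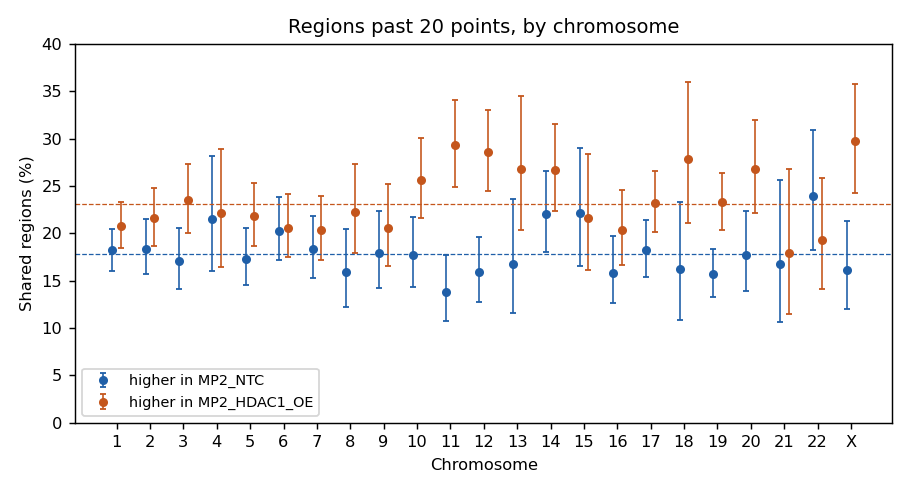
Percent of the shared regions of each chromosome that are members (blue) or belong to the mirror set (orange), with 95% Wilson intervals; dashed lines mark 17.8% and 23.1%, the shares over all shared regions. Members are at 13.8% on chromosome 11 and at 24% on chromosome 22.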

How the data were processed

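H3K27ac ChIP-sequencing of MP2_HDAC1_OE and MP2_NTC was processed by the authors with the ENCODE ChIP-seq pipeline. The submitters' processing notes name BWA 0.7.12, Picard 1.88, SAMtools and hg38, and the peak caller is not given in the sources used here. The authors deposited 1 peak list per line (optimal set by IDR over both samples) with a signal value per peak, whose scaling is not known, and a score that follows the IDR, with a maximum of 1000. Lists without counts leave the depth unknown. Other deposited columns were not used here.

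Overlapping peaks were merged, ranked and compared as described above. Ties took the mean rank, and the strongest peak of a region gave its summit. Gene starts came from RefSeq promoters (GRCh38.p14) for 15843 coding genes and from both gene ends for 4213 without an entry there. Counting intervals are Wilson, Newcombe and binomial order statistics. No test was run, since each list pools both samples.

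The members and the 28 gene lists were chosen with earlier results of these data known. Named were the 15 promoter members and 10 members outside all windows with the largest gap, the 10 with the highest MP2_NTC rank, genes of the lists, 3 regions on each side of the threshold, genes with 2 or more members, 5 chains with the most members and *HDAC1*. The last of these chains was the shortest of the 6 that held 4 members. The gene pairs with both directions were chosen after their values were seen. Scripts ran in Python 3.11.15 on pandas 2.3.3 and numpy 2.4.6, with intervals of medians from scipy 1.17.1 and plots from matplotlib 3.10.9, and the merging and ranking were tested on simulated lists. Alternatives covered the gap, the ranks, the sum of signals, stricter peaks, merging distance, overlap, single peaks, list length, a log2 ratio, windows and neighbour distance. Distal sequence was not analysed here, and some genes of the rules and lists are not reported here.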

Additional observations from a re-analysis of the deposited data

How the results depend on the processing

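No paired analysis was possible because the samples of a line enter 1 pooled list, and no replicate could be left out for the same reason. The reported 1686 members and 2193 regions of the mirror set became 993 and 1310 at a gap of 30 points, 384 and 503 with exactly 1 peak of each list, and 881 and 1182 with strongest summits within 100 bp, a setting chosen after seeing the data. The fall follows from the construction of these settings, which keep a part of the regions. Under the other 8 settings the member count ran from 1328 to 2136. The sum of peak signals in place of the highest signal kept only 1016 (60.3%) of the reported members, and the log2 ratio kept 1273 (75.5%). The mirror set exceeded the members as reported and in every setting other than ranks over shared regions (2049 against 2059) and the log2 ratio (1491 against 1507).

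The share of members at coding promoters (71.5%) was 73.8% with ranks over shared regions, 75.4% with the 75% strongest peaks, 73.9% with strongest peaks that overlap by 50%, 78.4% with near summits and 80.4% with windows of all genes. It exceeded that of the mirror set as reported and under the settings that change the members, other than 1 peak of each list (69.5% against 70%), and the windows were not varied for the mirror set. The share beyond 10 kb (19.5%) was 17.4%, 16.4%, 17.6% and 13.6% in the first 4 of these. The median summit distance (89 bp) was 77 bp, 72 bp and 60 bp in the first 3, 118 bp with peaks up to 500 bp apart merged and 60.5 bp with 1 peak of each list. The share with another member within 50 kb (23.1%) was 27.6% and 15.7% at gaps of 15 and 30 points, 26.9%, 19.5%, 17.3% and 10.8% in the same 4 settings, 18.9% with merging over 500 bp, 5.73% with 1 peak of each list, 16.3% within 25 kb and 33.4% within 100 kb. It lay below that of the mirror set as reported and under the 11 settings that change the members. Unknown depth limits all of these values.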

Other observations

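Members over a miRNA hairpin numbered 8 of 1686, against 53 of 9477 shared regions. Windows of coding genes on both strands, as at bidirectional promoters, were met by 162 members (9.61%, 8.29% to 11.1%) and by 9.4% of the other shared regions. At *HDAC1* the region of the mirror set (chr1:32291457-32291900) lay beside a region with an MP2_NTC peak alone (chr1:32292210-32292433) with a signal of 46.7.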
